A study of Drosophila melanogaster with 9 samples.

Results

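The genes described here carry the core of the apoptosis machinery of Drosophila. They are the death inducers rpr (reaper) and W (head involution defective, hid), the inhibitors of apoptosis th (Diap1) and Diap2, the initiator caspase Nc (Dronc) with its adaptor Ark (Dark), the effector caspases Ice (Drice) and Dcp-1, and the Bcl-2 family gene Buffy. All 9 were found by name among the 8335 genes of the expression table, Diap2 under its synonym Iap2, and 29 of the 60779 listed introns belong to them. Ice and rpr have no listed intron.

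Reaper and Hid bind inhibitor of apoptosis proteins (IAPs) and release the caspases that these hold in check. Dark assembles Dronc into an active complex, and Dronc then activates the effector caspases Drice and Dcp-1, which dismantle the cell. Buffy is one of the Bcl-2 proteins of the fly, a family that guards or breaches mitochondria in mammals and has a milder part in fly cell death.

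The RNA came from ovarian somatic cells (OSCs), a cultured line of somatic cells of the fly ovary, in a study of the exon junction complex (EJC), the protein complex that splicing leaves on mRNA next to each removed intron. Cells of the 3 groups were nucleofected with siRNAs against GFP, which serves as the control (siGFP), against Acn, a subunit of the EJC-associated ASAP complex (siAcn), or against tsu, which encodes the EJC core protein Y14 (siTsu). All groups went through 2 transfections of 200 pmol siRNA, were kept at 27 °C for 4 to 5 days and gave 2 biological duplicates each. As described, control cells thus differ from treated cells in the target of the siRNA. Whether the groups were handled in parallel is not given in the sources used here, and sequencing depth differed between them. The duplicates come from 1 cell line, and p-values measure the spread between them. RNA was selected for polyA and sequenced in 50-nt paired ends.

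Values are RPKM, reads scaled by the length of the transcript and by the mapped reads of the library. The latter were worked out from the intron RPKM at 11.5 to 30.4 M reads (28.8 and 30.4 M in siGFP, 11.5 to 18.7 M in the knockdowns). The siGFP values exceed the range of genome-mappable reads per sample that the authors state. In siAcn cells Acn was at 16.8 and 16.5 RPKM against 98.1 and 140.4 RPKM in siGFP cells, and in siTsu cells tsu was at 9.77 and 9.16 RPKM against 128.4 and 111.6 RPKM. The 4 OSC and follicle markers (tj, fs(1)Yb, piwi and Fas3) were listed in every library with a summed level of 979 to 1207 RPKM in siGFP, 691 to 881 RPKM in siAcn and 426 to 570 RPKM in siTsu cells. Without piwi the sums were 532 to 595, 442 to 564 and 301 to 375 RPKM. Markers of other cell types had lower sums than these in every library, with the hemocyte sum higher in both knockdowns than in siGFP cells. Their sums in siGFP, siAcn and siTsu cells were 1.40 to 1.79, 2.38 to 2.54 and 1.32 to 1.66 RPKM for 3 of 4 germline markers, 11.9 to 12.1, 16.1 to 17.6 and 18.2 to 19.9 RPKM for 3 of 4 hemocyte markers (Hml near 0, srp at 8.60 to 8.63, 12.8 to 14.8 and 15.8 to 17.5 RPKM, Pxn at 3.32 to 3.48, 2.76 to 3.37 and 2.27 to 2.38 RPKM), and 2.60 to 3.23, 2.99 to 4.23 and 3.72 to 3.80 RPKM for 2 of 3 muscle markers, while none of 3 fat body markers was listed. Their part in the results below was not tested. In bulk RNA, fewer cells that express a gene and less of its RNA per cell cannot be told apart.

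In siTsu cells W rose 23.1-fold and Buffy fell to a level 24.1 times below the control, while the IAPs, the caspases and Ark stayed within 1.42-fold of it and did not pass the test. In siAcn cells none of the 9 genes passed the test, and W and Buffy lay on the same sides of the control as in siTsu cells at smaller differences. The test was limma on log2(RPKM + 1) for 7362 genes whose mean over the 6 libraries reached 1 RPKM, with a Benjamini-Hochberg adjusted p under 0.05 as the threshold. All 9 genes passed that filter, W only through its siTsu level and rpr only through the knockdown libraries. Differences on this scale understate changes of low genes, so ratios of mean RPKM are given as well. Both knockdowns are compared with the same siGFP libraries.

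**Figure D1:**
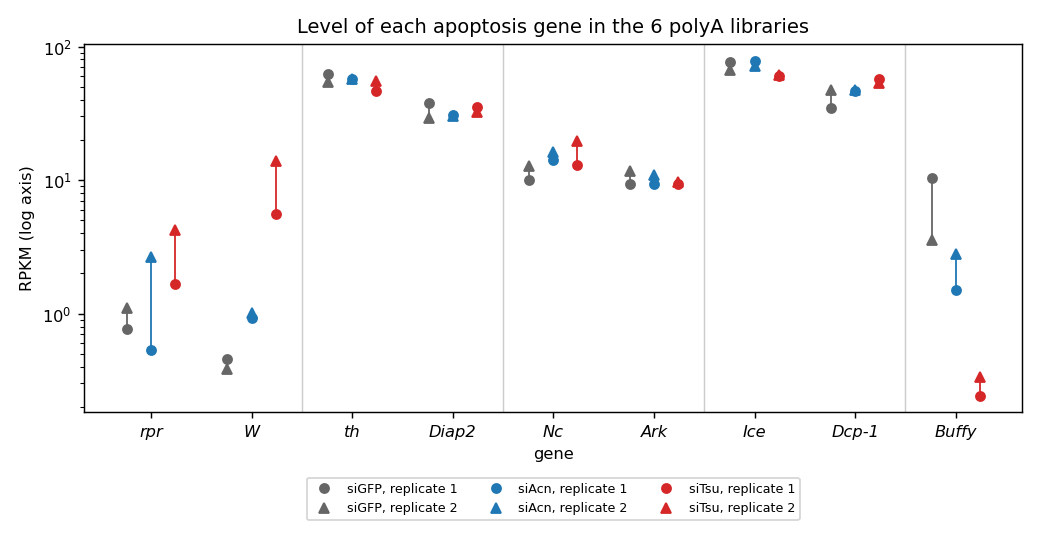
RPKM (log axis) of the 9 apoptosis genes in the 6 polyA libraries, grouped by role, with circles for replicate 1 and triangles for replicate 2 of siGFP, siAcn and siTsu cells and a line joining the duplicates. W stood above its siGFP levels of 0.455 and 0.388 RPKM in all 4 knockdown libraries and Buffy stood below its siGFP levels of 10.3 and 3.59 RPKM, while th, Diap2 and Ark formed nearly level rows. In the siTsu libraries Dcp-1 stood above and Ice below their levels in all others, by smaller steps than W and Buffy.

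In control OSCs the executioners and their inhibitors were well expressed and the inducers were close to the bottom of the table. Ice had a mean of 71.7 ± 7.12 RPKM (SD, n = 2), higher than 85.1% of the listed genes, followed by th at 58.4 ± 5.32 RPKM, Dcp-1 at 40.9 ± 8.93 RPKM and Diap2 at 33.6 ± 5.88 RPKM (SD, n = 2 each). Nc stood at 11.4 ± 1.98 RPKM, Ark at 10.5 ± 1.64 RPKM and Buffy at 6.96 ± 4.77 RPKM (SD, n = 2 each). The inducers were lowest, rpr at 0.934 ± 0.231 RPKM and W at 0.422 ± 0.047 RPKM (SD, n = 2 each), a level that 8.28% of the listed genes lay below for W. In this order the libraries of Dcp-1 and Diap2 overlapped, as did those of Nc, Ark and Buffy, whereas Ice and th, th and Dcp-1, Diap2 and Nc, Buffy and rpr, and rpr and W did not overlap. In siTsu cells the order differed at both ends. Buffy had become the lowest of the 9, and the W libraries overlapped those of Nc and Ark.

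W, the gene of Hid, is an inducer that developmental signals and MAP kinase control. It was at 0.455 and 0.388 RPKM in siGFP, 0.935 and 1.01 RPKM in siAcn, and 5.60 and 13.9 RPKM in siTsu cells. Both siTsu libraries were far above all others, the siAcn libraries lay between them and the control, and no 2 groups overlapped, although the siTsu duplicates differed 2.48-fold from each other. The siTsu mean of 9.75 ± 5.87 RPKM against 0.422 ± 0.047 RPKM (SD, n = 2 each) gave a difference of mean log2(RPKM + 1), called log2 difference here, of 2.80 (SE 0.38, limma adjusted p = 0.0221), higher than 99.9% of the genes tested. It passed upward, as did 1.22% of all genes tested, and since it met the filter only through its siTsu libraries the fit was repeated without a filter, which gave an adjusted p of 0.0238 with limma. The siAcn mean was 2.30 times the control, or 0.47 on the log2 scale (SE 0.38, limma adjusted p = 0.834). This SE pools the spread of all 3 groups, in which the siTsu duplicates lay farthest apart. With only siAcn and siGFP fitted the adjusted p was 0.940 with limma. The direct difference between siTsu and siAcn cells, 2.33 on the log2 scale, missed the threshold (adjusted p = 0.0517 with limma). Read numbers for W can only be bracketed, since its annotated transcripts span 2190 to 4018 nt, and they came to between 26 and 53 reads per siGFP library and between 194 and 644 reads per siTsu library. The call on W in siTsu cells was lost without siGFP replicate 1 (adjusted p = 0.130), siGFP replicate 2 (0.0791) or siTsu replicate 2 (0.107), with limma and log2 differences of 2.84, 2.77 and 2.22.

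rpr encodes Reaper, the small IAP antagonist for which the group is named. Its level was 0.770 and 1.10 RPKM in siGFP, 0.535 and 2.66 RPKM in siAcn, and 1.68 and 4.24 RPKM in siTsu cells, from 20 and 30, 9 and 32, and 24 and 44 reads. Both siTsu libraries exceeded both siGFP libraries, the siAcn libraries lay on either side of them, and replicate 2 was above replicate 1 in each group, by 1.42, 4.97 and 2.52 times. The same order of replicates in all 3 groups was found for 20.4% of the genes tested, Nc and Ark among them, and the opposite order for 32.1%, Diap2 among them. The siTsu mean of rpr was 3.17 times the control, a log2 difference of 0.96 (SE 0.49, 95% interval -0.20 to 2.12) that did not pass limma (adjusted p = 0.274) and came to 0.48 without siTsu replicate 2 and to 1.44 without siTsu replicate 1. In siAcn cells the log2 difference was 0.30 (SE 0.49, adjusted p = 0.902 with limma), and without siAcn replicate 2 it turned to -0.33. W was below rpr in both siGFP libraries, at 0.591 and 0.354 times its level, and 3.33 and 3.28 times above it in the siTsu libraries. In the siAcn libraries this ratio was 1.75 and 0.379.

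The IAPs, which hold caspases inactive, showed no difference past the test. th was at 62.2 and 54.7 RPKM in siGFP, 57.4 and 56.9 RPKM in siAcn, and 46.8 and 55.2 RPKM in siTsu cells. Its libraries overlapped in both comparisons with the control, with log2 differences of -0.03 in siAcn cells (95% interval -0.36 to 0.31, adjusted p = 0.971) and -0.19 in siTsu cells (95% interval -0.53 to 0.14, adjusted p = 0.434), both with limma. Diap2 was at 37.7 and 29.4, 30.6 and 30.0, and 35.2 and 32.6 RPKM in siGFP, siAcn and siTsu cells, again with overlap of each knockdown and the control. Its log2 differences were -0.13 (95% interval -0.49 to 0.23, adjusted p = 0.868) and 0.02 (95% interval -0.34 to 0.39, adjusted p = 0.933, both with limma). Leaving out siGFP replicate 1 turned the siAcn difference of Diap2 to 0.04 and that of th to 0.06, and leaving out siGFP replicate 2 turned the siTsu difference of Diap2 to -0.15.

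The summed level of the inducers can be set against that of th, the IAP they bind, since RPKM is scaled by length. W and rpr together came to 1.23 and 1.49 RPKM in siGFP, 1.47 and 3.67 RPKM in siAcn, and 7.28 and 18.1 RPKM in siTsu cells. The ratio of th to this sum was 50.7 and 36.8 in siGFP, 39.1 and 15.5 in siAcn, and 6.43 and 3.04 in siTsu cells. The siTsu ratios lay below all others, and siAcn replicate 1 lay between the siGFP libraries. The level of th itself overlapped between each knockdown and the control, and its mean stayed within 1.15-fold of it. This ratio therefore mainly restates the summed level of W and rpr, of which W was the larger part in siTsu cells.

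**Figure D2:**
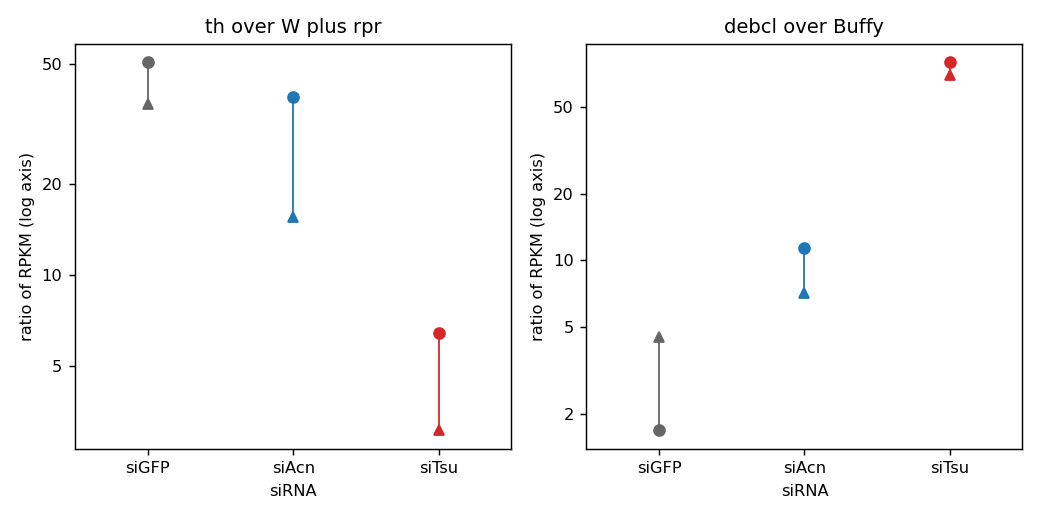
Ratio of RPKM (log axis) within each library for th over the sum of W and rpr (left) and for debcl over Buffy (right) in siGFP, siAcn and siTsu cells, with circles for replicate 1, triangles for replicate 2 and a line joining the duplicates. The left ratio stood at 50.7 and 36.8 in siGFP and at 6.43 and 3.04 in siTsu libraries, and the right ratio at 1.68 and 4.49 in siGFP and at 79.8 and 69.5 in siTsu libraries.

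The initiator caspase gene Nc was at 10.01 and 12.8 RPKM in siGFP, 14.1 and 16.2 RPKM in siAcn, and 13.0 and 19.5 RPKM in siTsu cells, with 415 to 783 reads per library. All 4 knockdown libraries exceeded both control libraries, by a narrow margin for siTsu replicate 1. The log2 differences of 0.39 (95% interval -0.13 to 0.91, adjusted p = 0.789) and 0.46 (95% interval -0.07 to 0.98, adjusted p = 0.254) did not pass limma. The siTsu difference of Nc came to 0.18 without siTsu replicate 2, to 0.29 without siGFP replicate 1 and to 0.73 without siTsu replicate 1. Ark, whose product assembles Dronc, was at 9.30 and 11.6, 9.32 and 10.9, and 9.39 and 9.64 RPKM in siGFP, siAcn and siTsu cells. Its groups overlapped throughout, with log2 differences of -0.04 and -0.12 (adjusted p = 0.964 and 0.696 with limma) that changed sign with the library left out, to 0.11 without siGFP replicate 2 in siAcn cells and to 0.03 without the same library in siTsu cells.

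The effector caspases Ice and Dcp-1 did not pass the test in either knockdown, and in siTsu cells they lay on opposite sides of the control. Dcp-1 was at 34.6 and 47.3 RPKM in siGFP, 46.2 and 47.0 RPKM in siAcn, and 57.3 and 53.6 RPKM in siTsu cells, from 1081 to 2509 reads. Both siTsu libraries were above all others, while siAcn and siGFP overlapped. The siTsu difference of 0.44 on the log2 scale (95% interval 0.04 to 0.85) had an unadjusted p of 0.0345 and an adjusted p of 0.169 with limma. Ice was at 76.8 and 66.7, 78.3 and 71.3, and 60.4 and 61.6 RPKM in siGFP, siAcn and siTsu cells. Both siTsu libraries were below the other 4, at a log2 difference of -0.23 (95% interval -0.55 to 0.09, adjusted p = 0.340 with limma). Within each library Ice was 2.22 and 1.41 times Dcp-1 in siGFP, 1.69 and 1.52 times in siAcn, and 1.05 and 1.15 times in siTsu cells. For Dcp-1 the opposite strand of the locus also carries pita, which was at 27.4 and 25.6 RPKM in siGFP and at 19.3 and 15.4 RPKM in siTsu cells. The authors made strand-specific libraries, but whether counting used the strand is not given in the sources used here.

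Buffy fell in siTsu cells. It was at 10.3 and 3.59 RPKM in siGFP, 1.50 and 2.81 RPKM in siAcn, and 0.243 and 0.334 RPKM in siTsu cells, from 309 and 113, 29 and 39, and 4 and 4 reads. No 2 groups overlapped, the siAcn libraries lay between the others, and the siGFP duplicates themselves were nearly 3-fold apart. The siTsu mean of 0.289 ± 0.064 RPKM against 6.96 ± 4.77 RPKM (SD, n = 2 each) gave a log2 difference of -2.48 (SE 0.44, adjusted p = 0.0391 with limma), lower than all but 0.109% of the genes tested. It passed downward, as did 2.46% of all genes tested. In siAcn cells the mean of 2.15 ± 0.93 RPKM (SD, n = 2) was 3.23 times below the control, with a log2 difference of -1.22 (SE 0.44, unadjusted p = 0.0289, adjusted p = 0.564 with limma). The difference between the knockdowns, -1.26 on the log2 scale, had an adjusted p of 0.270 with limma. The call in siTsu cells was lost without siGFP replicate 1 (log2 difference -1.83, adjusted p = 0.137), siTsu replicate 1 (-2.43, adjusted p = 0.109) or siTsu replicate 2 (-2.54, adjusted p = 0.204), all with limma. In siAcn cells the log2 difference of Buffy was -0.57 without siGFP replicate 1 and -1.88 without siGFP replicate 2.

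debcl, the other Bcl-2 family gene of the fly, did not follow Buffy. It was at 17.4 and 16.1 RPKM in siGFP, 17.1 and 20.1 RPKM in siAcn, and 19.4 and 23.2 RPKM in siTsu cells, and its siTsu difference of 0.33 on the log2 scale did not pass limma (adjusted p = 0.243). The ratio of debcl to Buffy was 1.68 and 4.49 in siGFP, 11.4 and 7.13 in siAcn, and 79.8 and 69.5 in siTsu cells, with no overlap between groups. Mean debcl stayed within 1.27-fold of the control, so this ratio mainly restates the level of Buffy, which rests on 4 reads in each siTsu library.

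**Figure D3:**
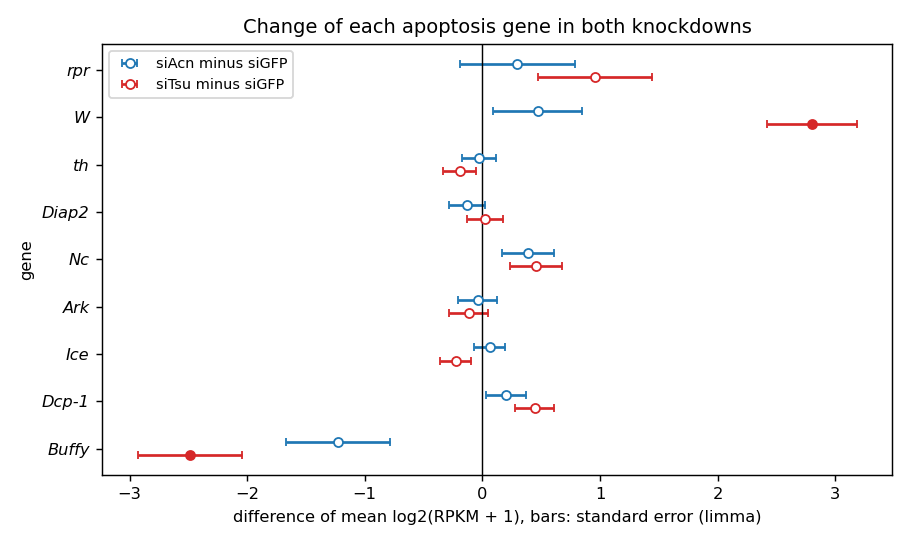
Difference of mean log2(RPKM + 1) from siGFP cells for each apoptosis gene in siAcn and siTsu cells, with bars for the standard error of the limma fit and filled points for an adjusted p under 0.05. Only W at 2.80 and Buffy at -2.48, both in siTsu cells, are filled, and every other siTsu value lies between -0.23 and 0.96.

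Counted together, 0 of 9 members passed limma in siAcn cells, where 0.0679% of all genes tested passed (0.0543% upward, 0.0136% downward). Before adjustment 1 member, Buffy, had a p under 0.05 there, against 7.61% of all genes. Nc and W were higher in both siAcn libraries than in both siGFP libraries, and Buffy was lower, against 11.8% and 20.8% of all genes without overlap upward and downward. In siTsu cells W and Buffy passed, 2 of 9 members against 3.68% of all genes, and Dcp-1 joined them before adjustment, against 24.4% of all genes. Without overlap, 4 members (Nc, Dcp-1, rpr and W) were higher and 2 (Ice and Buffy) were lower in siTsu than in siGFP cells, against 20.0% and 35.2% of all genes. Between siTsu and siAcn cells 0 of 9 passed limma, where 1.01% of all genes passed (0.367% upward, 0.638% downward), and W and Buffy had an unadjusted p under 0.05, against 14.8% of all genes. Here Diap2, Dcp-1 and W were higher and th, Ice and Buffy lower without overlap, against 20.8% and 29.1% of genes. The median log2 difference of the 9 genes was 0.06 in siAcn and 0.02 in siTsu cells, beside -0.05 and -0.09 over all genes tested.

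The 29 introns of these genes bear on what the EJC does in splicing. An intron retention index, the RPKM of an intron over that of its gene in the same library, was formed for each. The deposited intervals reach 35 nt into either flanking exon, and coordinates are those of build dm3 without these ends. th has 6 overlapping forms of its 5′UTR intron (372 to 10392 nt), Ark has 10 introns of 53 to 1148 nt, Diap2 has 3, Nc 1, Dcp-1 2, W 3 and Buffy 4. Of the 29, 2 had no read in any library and 8 exceeded 10% of their gene in at least 1 library. The 4 introns that also had a gene above 10 RPKM in siGFP cells, 1 of Diap2 and 3 of Ark, were tested with limma on the log2 index. None passed in either comparison with the control, where 1.33% of 2848 introns passed in siAcn and 2.77% in siTsu cells, nor between the knockdowns (0.527%), and 0 of 4 had an unadjusted p under 0.05. Their adjusted p-values ran from 0.520 to 0.996 with limma. With so few reads only large changes of these introns are detectable.

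The tested intron of Diap2, 379 nt between coding exons, held 17 and 14 reads in siGFP, 27 and 5 in siAcn, and 9 and 8 in siTsu cells. Its index was 3.49 and 3.50%, 10.5 and 2.78%, and 3.60 and 4.75%, with only siAcn replicate 1 standing out. The 121-nt intron of Ark held 2 to 7 reads per library, and its index was 13.7 and 8.95% in siGFP, 15.1 and 7.22% in siAcn, and 10.6 and 28.4% in siTsu cells, with overlap throughout. The single intron of Nc, 509 nt long, was lower in the libraries in which the transcript was higher. It held 13 and 10 reads in siGFP libraries and 2 to 3 reads in each knockdown library, and its index of 7.80 and 4.45% in siGFP cells was above the 1.31 to 2.52% of all 4 knockdown libraries. It did not reach the 10% needed for the test. In a fit without that limit, which took in 21 introns of these genes, neither it nor any other was called with limma. How many of all introns separate in this way was not counted.

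Introns over 2 kb occur in th, W and Buffy, and the largest of each had an index of at most 10.5% in every library. The 10392-nt form in th held 94 and 151 reads in siGFP, 61 and 35 in siAcn, and 47 and 20 in siTsu cells, an index of 0.30 to 0.87%. The 11237-nt intron of W lies between coding exons at chr3L:18166655-18177891 on the minus strand. It held 2 reads in each of the 6 libraries, while the transcript rose 23.1-fold, so its index went from 1.35 and 1.50% in siGFP to 0.20 and 0.11% in siTsu cells. With 2 reads a library no change of the intron itself is detectable. The 7831-nt 5′UTR intron of Buffy at chr2R:7567092-7574922 on the plus strand held 154 and 90 reads in siGFP, 8 and 18 in siAcn, and 2 and 0 in siTsu cells. It was lower in the same libraries as the transcript, and its index was 6.55 and 10.5%, 3.62 and 6.06%, and 6.57 and 0%. The short coding introns of Buffy held 0 to 3 reads per library, and the index of 358% for the 76-nt intron in siTsu replicate 2 rests on 2 reads over a transcript of 4 reads.

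**Figure D4:**
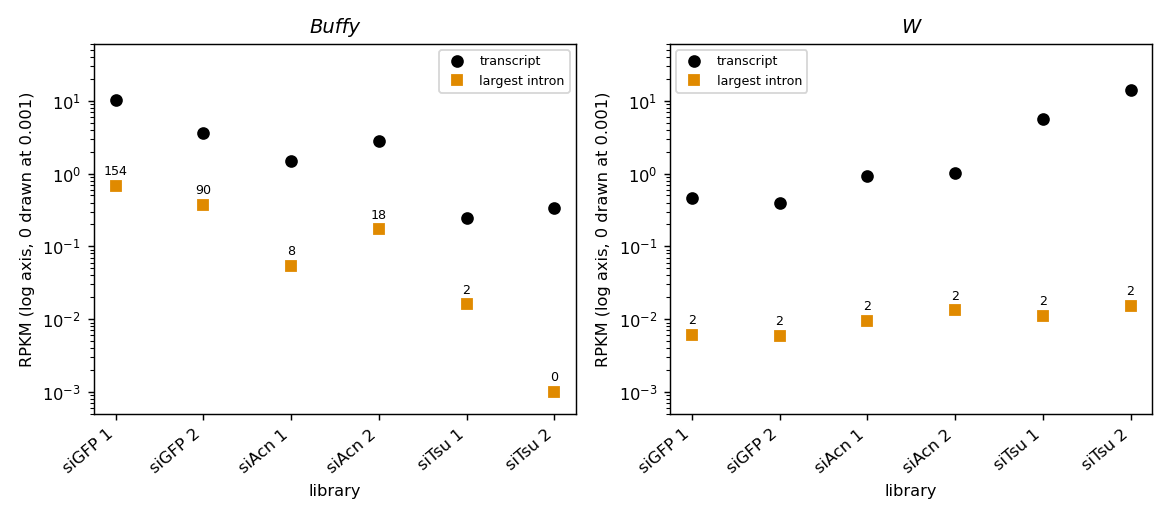
RPKM (log axis, 0 drawn at 0.001) of the transcript (black) and of its largest intron (orange, with its number of reads) in the 6 libraries for Buffy (left) and W (right). The Buffy intron went from 154 and 90 reads in siGFP to 2 and 0 reads in siTsu libraries together with the transcript, and the W intron had 2 reads in each library while the transcript went from 0.455 and 0.388 to 5.60 and 13.9 RPKM.

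Set beside genes with a largest listed intron of like size, W and Buffy stood far from the middle of their class. This follows from their place near the ends of all genes tested. The median log2 difference in siTsu cells was -0.16 over the 637 genes whose largest intron exceeds 10 kb, the class of W and th, and -0.16 over the 1090 genes with a largest intron between 2 and 10 kb, the class of Buffy. It was 0.04 over the 704 genes without a listed intron, among them Ice and rpr. The values of 2.80 for W and -0.19 for th came from 1 class.

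The libraries of Buffy and W were also compared with those of all other genes tested, by the Pearson correlation of log2(RPKM + 1) over the 6 libraries, as a description. Most alike to Buffy were Chd64 (r = 0.987), rudhira (0.986) and CG10979 (0.986), and to W raps (0.990), Jwa (0.986) and CG18190 (0.986). Of these CG18190 also differed by a like amount, with 2.64 and 1.50 RPKM in siGFP and 21.6 and 36.9 RPKM in siTsu cells, whereas raps lay between 60.5 and 68.0 RPKM in all libraries.

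The other genes of the pathway were taken from 11 lists of inducers, inhibitors, caspases, their regulators and upstream inputs. Of 52 further symbols 45 were listed and 44 were tested. The inducers grim and skl and the caspases Decay and Damm were not listed. In siAcn cells 0 of the 44 passed limma, where 0.0679% of all genes tested passed, and 4 had a p under 0.05 before adjustment, 2 in each direction, against 7.61% of all genes. In siTsu cells 1 passed, downward, where 3.68% of all genes passed, and before adjustment 13 lay below the control and 3 above it with a p under 0.05, against 24.4% of all genes. The median log2 difference of the 44 was -0.17 in siTsu cells beside -0.09 over all genes tested, and -0.02 beside -0.05 in siAcn cells.

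**Figure D5:**
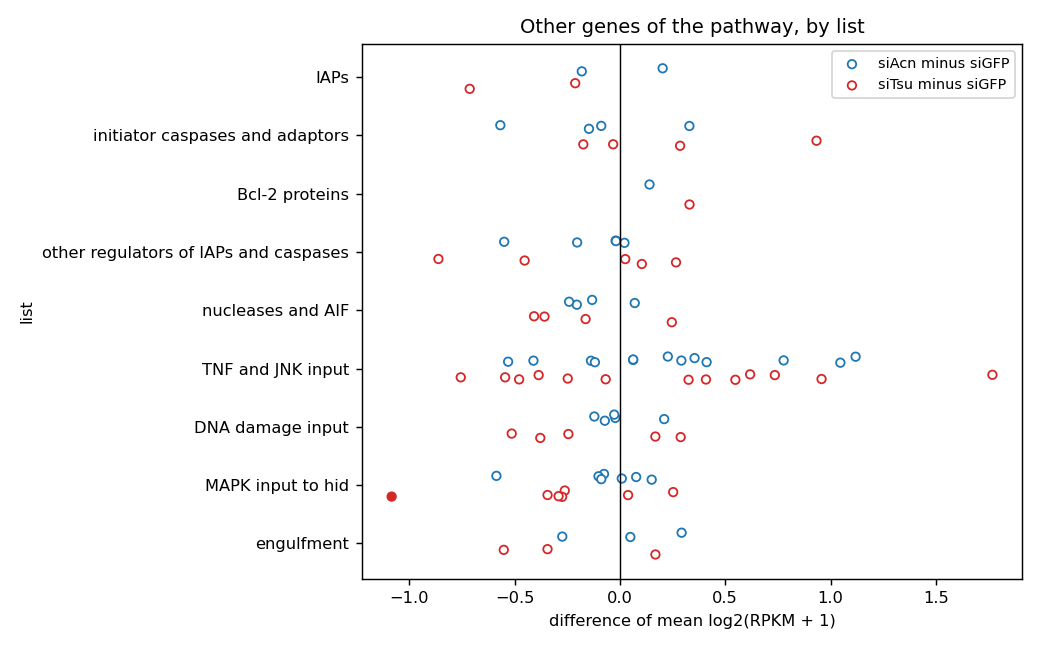
Difference of mean log2(RPKM + 1) from siGFP cells for the 44 other tested genes of the pathway, 1 row per list, in siAcn (blue) and siTsu cells (red), with filled points for an adjusted p under 0.05 with limma. The only filled point is rl at -1.08 in siTsu cells, and the point farthest to the right is Traf4 at 1.77.

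The gene that passed was rl (rolled), which encodes the MAP kinase that phosphorylates Hid and blunts its activity. rl was at 45.5 and 37.9 RPKM in siGFP, 37.8 and 40.2 RPKM in siAcn, and 19.5 and 18.6 RPKM in siTsu cells. Both siTsu libraries were near the same low level, and the siAcn and siGFP libraries overlapped. The log2 difference was -1.08 in siTsu cells (SE 0.14, adjusted p = 0.0189 with limma) and -0.09 in siAcn cells (adjusted p = 0.895 with limma). The call in siTsu cells was lost without siGFP replicate 1 and without either siTsu library, at log2 differences of -0.96 to -1.12. The 6 other genes of the MAP kinase input did not pass. Dsor1, the kinase that activates Rolled, had a log2 difference of -0.29 (adjusted p = 0.188 with limma) and pnt, a transcription factor downstream of it, -0.34 (adjusted p = 0.435 with limma) in siTsu cells. In siAcn cells pnt was at 4.26 and 4.72 RPKM against 6.32 and 8.26 RPKM in the control, lower without overlap, as were 20.8% of all genes tested. Its log2 difference there was -0.59 and did not pass limma (adjusted p = 0.669).

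Among regulators close to the caspases, Fadd, an adaptor of the initiator caspase Dredd, was at 4.42 and 4.22 RPKM in siGFP, 5.11 and 6.31 RPKM in siAcn, and 10.6 and 7.90 RPKM in siTsu cells. Its groups did not overlap, and higher without overlap than siGFP were 11.8% of all genes tested in siAcn and 20.0% in siTsu cells. The log2 difference of Fadd, 0.93 in siTsu cells, missed the threshold (adjusted p = 0.0534 with limma). The IAP family gene Det (deterin) was at 26.9 and 21.6, 22.5 and 19.9, and 15.2 and 13.5 RPKM, with the siTsu libraries lowest and a log2 difference of -0.71 (adjusted p = 0.0606 with limma). The giant IAP Bruce (-0.21, adjusted p = 0.432), Dredd (-0.17, adjusted p = 0.620), the ubiquitin ligase gene dnr1 (-0.86, adjusted p = 0.191) and Jafrac2 (-0.45, adjusted p = 0.149), whose product can displace Dronc from Diap1, did not pass limma in siTsu cells either. Dredd lay lower in siAcn cells, at 15.7 and 15.4 RPKM against 28.2 and 19.7 RPKM in the control, a log2 difference of -0.57 that did not pass limma (unadjusted p = 0.0250, adjusted p = 0.539). In siTsu cells limma also did not call the nuclease regulator Drep-1 (-0.36, adjusted p = 0.298) or AIF (-0.41, adjusted p = 0.145).

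Of the 13 genes of the TNF and JNK input none passed limma in siTsu cells, and before adjustment 4 lay below the control and 2 above it with a p under 0.05, against 24.4% of all genes tested. Traf4, an adaptor of the JNK cascade, was at 7.21 and 18.7 RPKM in siGFP, 18.9 and 33.7 RPKM in siAcn, and 37.0 and 48.3 RPKM in siTsu cells. Its siTsu libraries were above all others, with a log2 difference of 1.77 (adjusted p = 0.0771 with limma), and its siGFP duplicates lay far apart. The kinase gene msn was at 67.5 and 54.9 RPKM in siGFP, 113.9 and 156.2 RPKM in siAcn, and 88.6 and 117.5 RPKM in siTsu cells, above the control in all 4 knockdown libraries. Higher without overlap than siGFP were 11.8% of all genes tested in siAcn and 20.0% in siTsu cells. The log2 differences of msn were 1.12 in siAcn and 0.74 in siTsu cells (adjusted p = 0.227 and 0.105 with limma). Below the control, and chosen after their values were seen, were the TNF receptor gene wgn and the TNF ligand gene egr. wgn was at 21.0 and 20.8 RPKM in siGFP, 17.2 and 11.7 RPKM in siAcn, and 11.9 and 12.1 RPKM in siTsu cells, with log2 differences of -0.53 and -0.76 (adjusted p = 0.543 and 0.0772 with limma). egr was at 46.5 and 41.1, 36.3 and 29.3, and 35.2 and 24.9 RPKM, with log2 differences of -0.41 and -0.55 (adjusted p = 0.738 and 0.156 with limma). Both genes were lower in all 4 knockdown libraries than in either control library. Lower without overlap than siGFP were 20.8% of all genes tested in siAcn and 35.2% in siTsu cells. The kinase genes hep (-0.48, adjusted p = 0.0917) and bsk (-0.39, adjusted p = 0.176), chosen in the same way, also lay below the control in siTsu cells and did not pass limma. The siAcn libraries of hep were below the control without overlap too, and those of bsk overlapped it. Other genes of this input lay above the control in siTsu cells, also chosen after their values were seen. Among them were puc (0.62, adjusted p = 0.307), kay (0.55, adjusted p = 0.271) and Traf6 (0.41, adjusted p = 0.235), all with limma. The low TNF receptor gene grnd, listed as CG10176, was another (0.96, adjusted p = 0.279 with limma). The median log2 difference of the 13 genes was 0.33 in siTsu and 0.23 in siAcn cells, beside -0.09 and -0.05 over all genes tested. In the DNA damage input the checkpoint kinase genes lok (-0.38, adjusted p = 0.173) and tefu (-0.51, adjusted p = 0.0907) did not pass limma in siTsu cells, and in the engulfment list neither did the receptors drpr (-0.34, adjusted p = 0.363) and crq (-0.55, adjusted p = 0.105).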

How the data were processed

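PolyA-selected RNA of control, Acn-depleted and tsu-depleted OSCs (2 biological duplicates each) was analysed, and the rRNA-depleted libraries were not used here. The authors trimmed and aligned reads to the genome and to FlyBase 5.56 transcripts and introns with up to 3 mismatches, kept unique alignments, and deposited RPKM per gene and per intron. Bowtie, GSNAP and the build dm3 are named in the submitters' processing notes, with versions not given in the sources used here. Intron RPKM gave whole reads (within 0.1 read), and thereby the reads behind each library. Such reads were whole for the single-transcript genes Nc, Ice, Dcp-1, rpr and Buffy, and were not recovered for th, Diap2, Ark and W, so no count test was run on the gene table.

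Groups came from the sample labels. Tests used limma 3.58.1 (R 4.3.3, with a trend, 1 fit of 3 groups) on log2(RPKM + 1) of genes and on the log2 index of introns, to which 0.1 RPKM was added, with Benjamini-Hochberg adjustment over all features tested. An intron was tested where its gene averaged above 10 RPKM in siGFP cells and its index exceeded 10% in at least 1 library. The fits were tested on simulated data with normal noise and changes of 1 and 2 on the log2 scale. The gene fit called 85% and 97% of the changed genes, and the intron fit 13% and 60% of the changed introns. Tables and figures were made in Python 3.11.15 with matplotlib 3.10.9, pandas 2.3.3 and scipy 1.17.1.

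The members, the lists of pathway and marker genes and the tests were chosen with earlier results of these data known. All members were described, and from each list every gene past limma and up to 2 more genes with the largest change were named, with 3 genes most alike for each member past the test. From the TNF and JNK list wgn, egr, hep, bsk, puc, kay, Traf6 and grnd were named besides, after their values were seen. Alternatives changed the pseudocount, the filter on low values, the scaling, the trend and the groups fitted, added a replicate block or dropped 1 library at a time. Gene structure came from the BDGP6 annotation, used for lengths, places in the gene and overlapping genes only. The opposite strand carries other annotated genes at th, Diap2, Ark, Dcp-1 and Buffy.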

Additional observations from a re-analysis of the deposited data

Results flagged for a closer look

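The effect of the knockdowns on rl, the MAP kinase gene of the MAP kinase input, differed between them by a direct test. The authors already reported on this gene. In OSCs they saw severe skipping of its exons after tsu depletion and very mild skipping after Acn depletion. In cell clones of the ovary they saw its protein strongly reduced without Tsu and almost normal without Acn. rl was at 37.8 and 40.2 RPKM in siAcn and at 19.5 and 18.6 RPKM in siTsu cells, a log2 difference of -0.995 between the knockdowns (limma adjusted p = 0.0457). In the 6 fits with 1 library left out this difference stayed between -0.95 and -1.04, and none of them kept it past the threshold.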

How the results depend on the processing

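The calls on W and Buffy in siTsu cells rest on 2 libraries per group. Of the 9 genes, 2 passed limma in siTsu cells, and 0 to 2 passed with 1 library left out. With a pseudocount of 5 RPKM 1 passed (W, Buffy at adjusted p = 0.0682), and with a filter at a mean of 10 RPKM 0 passed, since W, rpr and Buffy were then not tested. The log2 difference of W ranged from 1.38 to 4.10 and that of Buffy from -4.01 to -1.12 over all alternatives, the extremes coming from pseudocounts of 5 and 0.1 RPKM. Between the knockdowns 1 of the 9 (W) passed with quantile normalization and without a trend, and 0 to 1 with 1 library left out. Of the 44 further genes 2 passed in siTsu cells with median centring, quantile normalization or only the compared groups fitted, and 0 to 2 with 1 library left out. The rl difference between the knockdowns dropped out, leaving 0, without a filter, with a mean of 10 RPKM, with only the compared groups fitted and in all 6 fits without 1 library (0 to 0). Over all genes the 5, 271 and 74 calls in siAcn cells, in siTsu cells and between the knockdowns came to 0 to 1, 6 to 369 and 1 to 9 with 1 library left out, so the shares of all genes given beside the counts vary as much. No alternative called a member in siAcn cells or any member intron that was fitted. These were the 4 introns, or 7 with genes above 1 RPKM and 21 without the filter on the intron's share of its gene.

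The groups share replicate numbers without a label that ties a number to a day or batch, and same-numbered libraries deviated together (r = 0.51 for siGFP and siAcn, 0.44 for siGFP and siTsu, 0.63 for siAcn and siTsu). With the replicate block 4 of the 9 genes passed in siTsu cells, Nc (adjusted p = 0.0395) and rpr (0.0382) besides W and Buffy, and 1 between the knockdowns. Of the 44 further genes 2 passed in siAcn cells (Traf4 and msn), 14 in siTsu cells (4 higher and 10 lower, among them Fadd, Traf4 and msn higher and rl, Det, Jafrac2, AIF, wgn, egr, lok, tefu and crq lower) and 3 between the knockdowns. Over all genes the block raised the calls from 5, 271 and 74 to 297, 1859 and 664.

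Small differences changed sign, none of them called. In siAcn cells th came to 0.017 and Ark to 0.0059 with median centring, and to 0.043 and 0.0078 with quantile normalization. With 1 library left out the siAcn differences ranged from -0.12 to 0.063 for th, -0.31 to 0.044 for Diap2, -0.19 to 0.11 for Ark, -0.039 to 0.16 for Ice, -0.020 to 0.42 for Dcp-1, -0.33 to 0.92 for rpr and -0.22 to 0.039 for rl, and the siTsu differences from -0.15 to 0.20 for Diap2, -0.26 to 0.029 for Ark and -0.42 to 0.075 for Dredd.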
